A study of Mus musculus with 6 samples.

Results

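The 10 genes described here are the myogenic regulators and satellite cell genes Myod1, Myf5, Myf6, Myog, Pax7, Pax3, Mef2c, Mstn, Ncam1 and Cdh15. They were chosen by name, for what is known of them and not for a measured value, though with earlier results of these data known. All 10 were found among the 54189 lines of the RNA-seq count table. RNA-seq measured total RNA of mouse Achilles tendon at 4 weeks of age in 3 genotypes, with 1 library per genotype. Control was Dicer f/f, which carries floxed Dicer alleles and no Cre. ScxHt was ScxCre/+ Knock In:Dicer +/+, with wild-type Dicer alleles and 1 Scx allele replaced by Cre. Dicer cKO was ScxCre/+ Knock In:Dicer f/f, so it shared the Scx allele of ScxHt and the floxed alleles of Control. Cre from the Scx locus, which is active mainly in tendons and ligaments, deletes Dicer in cells of that lineage. The paper proposes that this deletion is inefficient and mosaic, since Dicer was not strongly reduced. Muscle fibres, nerve and blood vessels in the sample lie mainly outside that lineage. By the study's supplement, the RNA of each genotype came from 1 mouse. The libraries held 16244232 counts in Control, 15769301 in ScxHt and 14959399 in Dicer cKO.

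Satellite cells are the stem cells of skeletal muscle and lie between the muscle fibre and its basal lamina. They are marked by the paired box factor Pax7, and when they are activated they turn on Myf5 and Myod1, then Myog as they stop dividing and fuse, while Myf6 (Mrf4) is the myogenic regulatory factor that stays on in mature fibres. These 4 factors are basic helix-loop-helix proteins that bind E-boxes together with E proteins and act with the Mef2 factors on muscle genes. The Achilles tendon is joined to muscle at the myotendinous junction, so a dissected tendon can hold muscle fibres and their satellite cells. Markers of mature fibres were read in all 3 libraries, and those of a list of 20 mature muscle genes took 6.54% of the counts in Control, 3.74% in ScxHt and 11.4% in Dicer cKO. In bulk RNA, fewer cells of a type and less RNA per cell cannot be told apart, and this holds for every ratio that follows.

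The 10 genes together took 0.0466% of the counts in Control, 0.0378% in ScxHt and 0.0640% in Dicer cKO, which is 7566, 5953 and 9577 reads. Mef2c and Ncam1, both of which are also expressed outside muscle, held 94.0%, 94.9% and 93.3% of these reads in Control, ScxHt and Dicer cKO. Of the 10 genes, 8 had more than 3 reads in every library, while Myf5 and Pax3 did not. Only 5 had enough reads to be called, since a call needed a baseMean, the mean normalized count of the 2 libraries compared, above 50 (Myf6, Mef2c, Mstn, Ncam1 and Cdh15). A gene was called higher at a ratio of normalized counts above 1.67 and lower below 0.60. Ratios of the 10 genes and of Mir206 are given with a 95% exact (Clopper-Pearson) interval, and most ratios of list genes without it. The interval covers counting error only and takes reads as independent molecules, which they are not, so it is too narrow. No genotype had a replicate library, so variation among animals could not be measured and no test was possible.

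Between Dicer cKO and Control, none of the 5 genes with enough reads was called higher or lower, where 3.87% of all 13404 genes analysed were called higher and 4.19% lower. Between ScxHt and Control, Myf6 and Cdh15 were called lower and none higher, where 4.71% of 13462 genes were called lower and 3.03% higher. Between Dicer cKO and ScxHt, Myf6, Mef2c and Cdh15 were called higher and none lower, where 7.68% of 13455 genes were called higher and 5.68% lower. The comparisons share libraries pairwise, so a low ScxHt value enters both of the last 2. Among the genes with more than 3 reads in every library, the largest ratios for Dicer cKO/Control belonged to Myod1 and Pax7, which had too few reads to be called. The plot of the level of each gene shows the reads behind these statements.

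**Figure D1:**
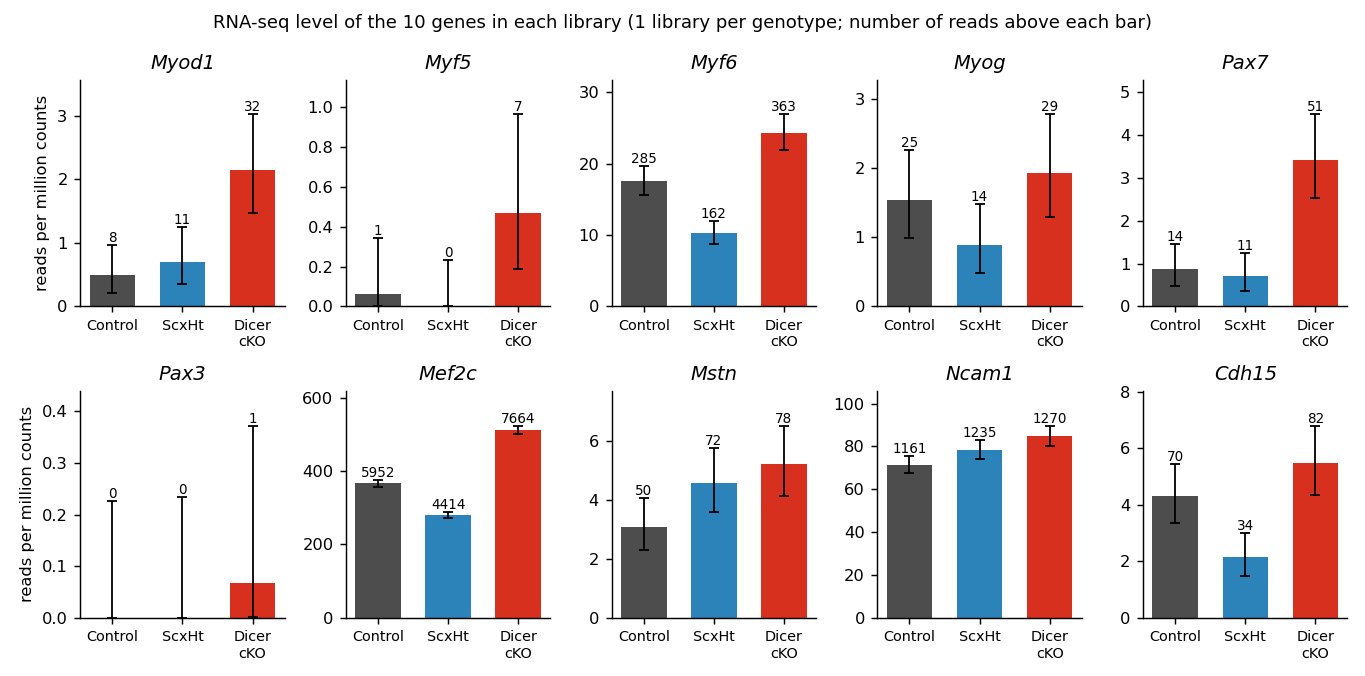
Level of each of the 10 genes in the Control, ScxHt and Dicer cKO RNA-seq libraries, in reads scaled to 1000000 counts per library on a linear axis that starts at 0 and differs between panels. Bars are the value of 1 library, error bars the 95% exact counting interval and the number above each bar its reads, from 0 for Pax3 in Control to 7664 for Mef2c in Dicer cKO; in all 10 genes the Dicer cKO bar is the highest.

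Across the 8 genes with more than 3 reads in every library, Dicer cKO had the highest normalized count in all 8, where this held for 34.8% of 19299 genes. The order Dicer cKO above Control above ScxHt held for 5 of them (Myf6, Myog, Pax7, Mef2c and Cdh15), where it held for 20.1% of those genes, and for Myod1, Mstn and Ncam1 Control was the lowest. The interval of the ratio lay above 1 against both other genotypes for 5 (Myod1, Myf6, Pax7, Mef2c and Ncam1), against 11.3% of all genes. Taking each comparison alone, the interval lay above 1 for 6 of the 8 and below 1 for none between Dicer cKO and Control, where it lay above 1 for 18.2% and below 1 for 22.2% of 19920 genes. Between ScxHt and Control it lay above 1 for none and below 1 for 3 (Myf6, Mef2c and Cdh15), where 20.7% of 20030 genes lay above and 19.3% below. Between Dicer cKO and ScxHt it lay above 1 for 7, all but Mstn, and below 1 for none, where 21.1% of 19918 genes lay above and 23.4% below. The median log2 ratio of the 8 was 0.41 when Dicer cKO was compared with Control, -0.45 when ScxHt was compared with Control and 1.25 for Dicer cKO/ScxHt, beside medians of -0.03, 0.02 and -0.03 over all genes analysed. With Myf5 taken at its ratio to the floor of 3 reads in ScxHt, which leaves out counting error, the Dicer cKO/ScxHt median was 1.30 over 9 genes. The 20 mature muscle genes moved in the same order, with Dicer cKO highest in 20 and the order Dicer cKO above Control above ScxHt in 16. Their medians were 0.89, -0.31 and 1.23 for the same 3 comparisons, and their part in the values of the 10 genes was not tested.

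Among the myogenic regulatory factors, Myf6 was by far the most abundant and Myf5 the least. Per length, in RPKM as the authors deposited it, the 4 factors summed to 15.2 in Control, 9.10 in ScxHt and 21.9 in Dicer cKO. Myf6 made up 91.3%, 89.4% and 87.8% of these sums, Myog 6.77%, 6.52% and 5.93%, and Myod1 1.74%, 4.12% and 5.25%. Hence the factor of mature fibres dominated the family in all 3 libraries. The share of Myod1 was the smallest in Control, but its 8 reads there and 11 in ScxHt are too few to order these 2.

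Myf6 lies on chromosome 10 (chr10:107492853-107494737, minus strand, GENCODE vM21 on GRCm38). It had 285 reads in Control, 162 in ScxHt and 363 in Dicer cKO, or 13.9, 8.13 and 19.2 RPKM. ScxHt was the low library and Dicer cKO the high one, and neither interval of a ratio to Control reached 1. The Dicer cKO/Control ratio was 1.32 (1.13 to 1.55), the ScxHt/Control ratio 0.544 (0.446 to 0.663), called lower, and the Dicer cKO/ScxHt ratio 2.47 (2.05 to 2.99), called higher. Under ratio thresholds of 2 and 0.5 the ScxHt/Control call was lost.

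Myf5, which with Myod1 starts the myogenic programme, lies 6718 bases from Myf6 on the same strand (chr10:107482908-107486134). It had 1 read in Control, 0 in ScxHt and 7 in Dicer cKO. The Dicer cKO/Control ratio of 7.27 had an interval from 0.934 to 328, so no difference was detectable at this depth. Against the floor of 3 reads per library, Dicer cKO was at least 2.57-fold higher than ScxHt, a bound that leaves out the counting error of the 7 reads. The exact upper limit for the count of 0 in ScxHt is 0.234 reads per 1000000 counts. The neighbouring genes thus stood far apart in level, at 19.2 RPKM for Myf6 and 0.225 for Myf5 in Dicer cKO.

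Myod1, the factor that commits cells to the muscle fate (chr7:46376474-46379099, plus strand), had 8 reads in Control, 11 in ScxHt and 32 in Dicer cKO, or 0.265, 0.375 and 1.15 RPKM. Control and ScxHt lay close together and Dicer cKO above both. Dicer cKO was at 4.15 times Control (1.87 to 10.4) and 3.21 times ScxHt (1.57 to 7.05), and ScxHt at 1.32 times Control (0.483 to 3.77). Its baseMean of 20.2 was under the minimum for a call, and among genes with a baseMean above 10 and up to 50, 15.5% had an interval above 1 for Dicer cKO/Control and 18.2% for Dicer cKO/ScxHt.

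Myog, the factor of differentiation and fusion (chr1:134289989-134292548, plus strand), had 25 reads in Control, 14 in ScxHt and 29 in Dicer cKO, or 1.03, 0.594 and 1.30 RPKM. Its Dicer cKO/Control ratio was 1.20 (0.681 to 2.14), so Control and Dicer cKO could not be told apart at this depth. Against ScxHt the ratio was 2.28 (1.17 to 4.67), and the ScxHt/Control ratio was 0.536 (0.258 to 1.07). Its Dicer cKO/Control ratio was below that of Myod1, with intervals that overlap.

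The paired box genes came next. Pax7, the defining marker of satellite cells (chr4:139737062-139833528, minus strand), had 14 reads in Control, 11 in ScxHt and 51 in Dicer cKO, or 0.147, 0.119 and 0.582 RPKM. Dicer cKO stood above both other libraries, which had nearly the same count. Dicer cKO was at 3.78 times Control (2.06 to 7.40) and 5.11 times ScxHt (2.63 to 10.9), and ScxHt at 0.753 times Control (0.309 to 1.78). With a baseMean of 32.9 Pax7 was also under the minimum for a call. It was the lowest of the 8 genes in RPKM in every library, at percentile 16.8 of genes with an RPKM above 0 in Control and 30.9 in Dicer cKO. Pax3, its relative of the embryonic muscle lineage and of the neural crest (chr1:78101267-78197134, minus strand), had 0 reads in Control, 0 in ScxHt and 1 in Dicer cKO. All 3 values lie under the floor of 3 reads, and no ratio is given.

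Both paired box genes are textbook targets of miR-206, a miRNA of skeletal muscle, and its sequence and the matches in their 3′ UTRs are shown because small RNA-seq of the same tendon samples measured it. The mature sequence, from RefSeq (GRCm38.p6, chr1:20679055-20679076, plus strand), has its seed, bases 2 to 8, in capitals.
mmu-miR-206-3p: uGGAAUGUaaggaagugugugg
In the longest 3′ UTR of each gene in GENCODE vM21, the letters ACATTCCA (8mer), ACATTCC (7mer-m8) and CATTCCA (7mer-A1) were searched on the transcript strand. Pax7 held 5 matches in 3725 bases, of which 1 was an 8mer, 3 were 7mer-m8 and 1 was a 7mer-A1. Pax3 held 2 of the 7mer-m8 kind in 2038 bases, Ncam1 held 1 of the 7mer-m8 and 1 of the 7mer-A1 kind in 3307 bases, and these letters were not in the 3′ UTR of the other 7 genes. The 8mer and the 7mer-m8 nearest the stop codon of Pax7, and both matches of Pax3, are printed with the match in capitals and with the bases on either side.
Pax7 8mer, chr4:139738666-139738673, minus strand: agggagcaACATTCCAacgcttgg
Pax7 7mer-m8, chr4:139739210-139739216, minus strand: ccagcaagACATTCCtagagaga
Pax3 7mer-m8, chr1:78102473-78102479, minus strand: aagctaaaACATTCCgtgtgtgt
Pax3 7mer-m8, chr1:78101481-78101487, minus strand: gcacaaatACATTCCctttagat
For comparison, 10961 genes with a Dicer cKO/Control baseMean above 50 and an annotated 3′ UTR were searched, a set without Pax7 and Pax3. Of these, 21.5% held at least 1 match of any kind and 5.05% an 8mer, and 3 genes, or 0.0274%, held 5 or more. Among the 2248 of them with a 3′ UTR of at least 3000 bases, which is the length range of Pax7, 0.133% held 5 or more. A match is a description of letters, not of a working site, and any miRNA with the same seed has the same matches.

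Small RNA-seq, in a separate library per genotype, gave Mir206 310922 reads in Control, 134734 in ScxHt and 408434 in Dicer cKO, or 2.83%, 1.60% and 4.84% of the counts. Dicer cKO was at 1.51 times Control (1.50 to 1.51) and 3.03 times ScxHt (3.01 to 3.05), and ScxHt at 0.488 times Control (0.485 to 0.491). When scaled by total counts the Dicer cKO/Control ratio was 1.71, past 1.67. Mir206 was thus highest in Dicer cKO, as was Pax7, the gene with most matches, and lowest in ScxHt, where the reads of Pax7 did not separate it from Control. The mature muscle list had the same order of libraries as Mir206, at 6.54%, 3.74% and 11.4% of RNA-seq counts in Control, ScxHt and Dicer cKO. Neither its part in the Mir206 values nor a link between Mir206 and Pax7 was tested.

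Mef2c is a MADS-box factor that acts with the myogenic factors and is also expressed in endothelium, smooth muscle and other cells. It lies on chromosome 13 (chr13:83504034-83667080, plus strand) and was the most abundant of the 10 genes per length in every library. It had 5952 reads in Control, 4414 in ScxHt and 7664 in Dicer cKO, or 23.3, 17.8 and 32.6 RPKM. At this depth the 3 libraries were clearly separated, with Dicer cKO at 1.34 times Control (1.29 to 1.38) and 1.91 times ScxHt (1.84 to 1.99), called higher, and ScxHt at 0.710 times Control (0.683 to 0.739). Under ratio thresholds of 2 and 0.5 the call against ScxHt was lost. Endothelial markers, a list of 12 genes, were read in every library with no gene at 0, and summed to 921 RPM (reads scaled to 1000000 counts per library) in Control, 664 in ScxHt and 1023 in Dicer cKO. Those of smooth muscle and pericytes, 8 genes with none at 0, summed to 1355, 1095 and 1638. This list holds Des, which skeletal muscle fibres also express, with 6413, 3769 and 8905 reads, so its sum includes fibre RNA. The endothelial sum and this sum have the same order of libraries as Mef2c, and their part in the result was not tested.

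Mstn encodes myostatin, the secreted TGF-beta family ligand that limits muscle mass and is made by muscle fibres (chr1:53061640-53068079, plus strand). It had 50 reads in Control, 72 in ScxHt and 78 in Dicer cKO, or 1.14, 1.69 and 1.93 RPKM. Control was the low library, unlike for Myf6, Myog, Pax7, Mef2c and Cdh15, where it was ScxHt. Dicer cKO was at 1.62 times Control (1.12 to 2.36) and 1.19 times ScxHt (0.855 to 1.67), ScxHt was at 1.38 times Control (0.948 to 2.02), and none of these was called. Its Dicer cKO/Control ratio lay just under 1.67, and scaling by total counts made it a call.

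The adhesion molecules differed for ScxHt/Control, where their intervals did not overlap. Ncam1 encodes NCAM (CD56), found on satellite cells, on young or denervated fibres, on nerve and on Schwann cells (chr9:49502136-49798925, minus strand). It had 1161 reads in Control, 1235 in ScxHt and 1270 in Dicer cKO, or 8.25, 9.04 and 9.80 RPKM. The range of ratios was the narrowest of the 8 genes, with Dicer cKO at 1.14 times Control (1.05 to 1.23) and 1.13 times ScxHt (1.05 to 1.23), and ScxHt at 1.02 times Control (0.940 to 1.10). An antisense gene, Gm11149, overlaps it, and since a strand setting is not given in the sources used here, reads of the 2 cannot be told apart. Schwann cell markers, a list of 15 genes of which 1 was at 0 in ScxHt, summed to 115 RPM in Control, 111 in ScxHt and 557 in Dicer cKO. Their part in the Ncam1 values was not tested.

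Cdh15 encodes M-cadherin, which holds satellite cells to the fibre and takes part in myoblast contact (chr8:122847966-122867397, plus strand). It had 70 reads in Control, 34 in ScxHt and 82 in Dicer cKO, or 1.33, 0.663 and 1.69 RPKM. ScxHt was the low library, called lower against Control at 0.465 (0.299 to 0.710), and Dicer cKO was called higher against ScxHt at 2.66 (1.76 to 4.09). Between Dicer cKO and Control the ratio was 1.22 (0.873 to 1.70), which spans 1. At a minimum baseMean of 200 Cdh15 was not analysed, and when the whole interval had to lie past the threshold neither Myf6 nor Cdh15 was called for ScxHt/Control. A protein-coding gene model, Gm20388, overlaps Cdh15 on the same strand, so its count is uncertain where the counting could split reads between them.

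**Figure D2:**
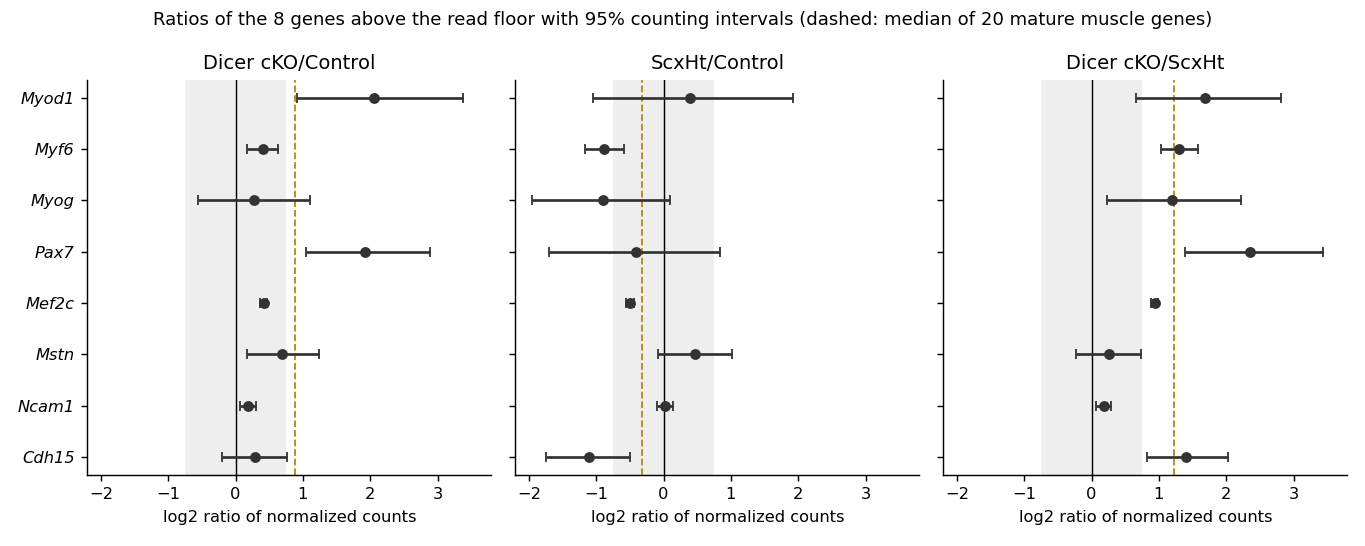
Log2 ratio of normalized counts of the 8 genes with more than 3 reads in every library, in the 3 comparisons named above the panels; points are ratios, bars 95% exact counting intervals, the grey band lies between the thresholds 0.60 and 1.67 and the dashed line is the median of the 20 mature muscle genes. Myod1 and Pax7 lie right of that line for Dicer cKO/Control, while Myf6, Mef2c, Ncam1 and Cdh15 lie left of it with their whole intervals.

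In RPKM, the order in Control was Mef2c, Myf6, Ncam1, Cdh15, Mstn, Myog, Myod1, Pax7, Myf5 and Pax3. In ScxHt, Ncam1 ranked above Myf6 and Mstn above Cdh15, and in Dicer cKO Mstn again ranked above Cdh15 while Myf6 was back above Ncam1. Among genes with an RPKM above 0, Mef2c stood at percentile 94.8 in Control, 91.9 in ScxHt and 96.5 in Dicer cKO, and Myf6 at 90.1, 80.8 and 93.1. Cdh15, Mstn and Myog lay between percentiles 33.1 and 50.7 in all 3 libraries. The placing of Cdh15, Mstn and Myog against each other rests on 14 to 82 reads per gene and changed between libraries.

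Because muscle RNA differed between the libraries, each ratio was also set beside the median of the 20 mature muscle genes, as a difference on the log2 scale that does not depend on how libraries are scaled. Here the intervals treat the muscle median as fixed. For Dicer cKO/Control, Myod1 lay 1.17 (0.02 to 2.49) above that median and Pax7 1.03 (0.15 to 2.0) above it, which is 2.24-fold and 2.04-fold. The other 6 genes lay under the median, and for Myf6 at -0.49 (-0.71 to -0.26), Mef2c at -0.47 (-0.52 to -0.42), Ncam1 at -0.71 (-0.82 to -0.59) and Cdh15 at -0.61 (-1.08 to -0.13) the whole interval was under it. Only 1 of the 20 muscle genes, Myh4, had a higher ratio than Myod1 and Pax7, while Myog, Ncam1 and Cdh15 were under all 20. In these libraries Pax7 and Myod1 thus lay above the median fibre gene against Control, and the fibre factor Myf6 and both adhesion molecules under it.

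Against ScxHt, the picture differed for Myod1. Pax7 again lay above the muscle median of Dicer cKO/ScxHt, by 1.12 (0.16 to 2.21), and above all 20 muscle genes, whereas Myod1 lay 0.45 (-0.58 to 1.59) above it, an interval that spans 0. Myf6 (0.07), Myog (-0.04) and Cdh15 (0.18) were close to the median, and Mef2c (-0.29), Mstn (-0.97) and Ncam1 (-1.05) under it. For ScxHt/Control, Mstn lay 0.78 (0.24 to 1.33) and Ncam1 0.34 (0.22 to 0.46) above the muscle median, and Cdh15 at -0.79 (-1.43 to -0.18), Myf6 at -0.56 (-0.85 to -0.28) and Mef2c at -0.18 (-0.24 to -0.12) under it. Myf6 and Cdh15, the genes called lower in ScxHt, thus also lay under the median fibre gene of that comparison. Both lay within the range of the 20 muscle genes, of which 6 had a lower ratio than Myf6 and 3 than Cdh15.

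**Figure D3:**
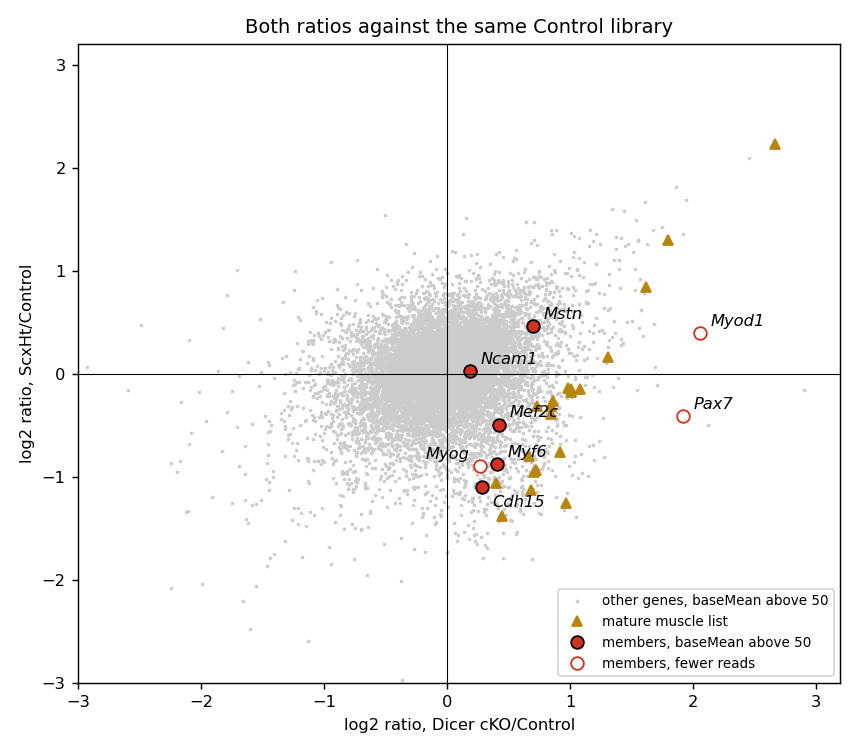
Log2 ratio for Dicer cKO/Control (horizontal) and ScxHt/Control (vertical), which share the Control library; grey dots are genes with a baseMean above 50, triangles the 20 mature muscle genes, filled circles the 5 genes of the group with enough reads to be called and open circles Myod1, Pax7 and Myog, and genes beyond the axes are not drawn. Among the circles, Myod1 and Pax7 lie farthest to the right, and the triangle of Myh4 lies farther right than both. Ncam1 lies near a vertical value of 0, with Myod1 and Mstn above it and Pax7, Mef2c, Myf6, Myog and Cdh15 under it.

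Among the genes of the lists described here, the one closest to each of the 5 genes over both log2 ratios was sought, with 141 list genes and 13109 genes in all compared. Rapsn, which clusters acetylcholine receptors, was nearest to Myf6 at a distance of 0.118, followed by Xirp1 at 0.124. Myh1, a fast myosin heavy chain, was nearest to Cdh15 at 0.126, followed by Fgfr4 at 0.303. For Mef2c the nearest were Myh11 of smooth muscle at 0.142 and Tek of endothelium at 0.162, for Mstn Vcam1 at 0.0213 and Matn3 at 0.111, and for Ncam1 Six4 at 0.130 and Cdh2 at 0.149. These distances rest on 3 libraries. Within 0.1 there were 9 genes for Cdh15 and 17 for Myf6 but 446 for Ncam1, so nearness to Ncam1 is common.

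Genes that work with these factors did not share a common direction. Of 21 partners of the myogenic factors, 19 had enough reads, and for Dicer cKO/Control 1 was called higher and 1 lower, with a median log2 ratio of -0.14. Eya1, a cofactor of sine oculis homeobox proteins that also stands in a gene table the study drew from these samples, was the highest at a ratio of 2.46, with ScxHt at 1.07 times Control and Dicer cKO at 2.33 times ScxHt. Id2, a dominant inhibitor of E proteins, was the lowest at 0.582, with 1.29 and 0.457. For ScxHt/Control 2 partners were called higher and 3 lower (median -0.23), and for Dicer cKO/ScxHt 4 higher and 3 lower (median 0.36).

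Of 15 other satellite cell genes, 12 had enough reads, and for Dicer cKO/Control 1 was called higher and none lower, with a median of 0.02. The call was Megf10, a receptor that keeps satellite cells dividing, at 1.72, with ScxHt at 0.763 times Control and Dicer cKO at 2.29 times ScxHt. Sdc4, a heparan sulfate proteoglycan of satellite cells and fibroblasts, was the lowest at 0.708. Against ScxHt 5 were called higher and 2 lower (median 0.41), and for ScxHt/Control none higher and 2 lower (median -0.25). The 3 genes of this list under the minimum, as Pax7 was, are Chrdl2, Calcr and Cxcr4. Chrdl2 had 3 reads in Control, 2 in ScxHt and 15 in Dicer cKO, a Dicer cKO/Control ratio of 5.19 (1.47 to 28.0) and a Dicer cKO/ScxHt ratio of 8.27 (1.92 to 74.5). Calcr, the calcitonin receptor of resting satellite cells, had 4, 0 and 11 reads, with 2.86 (0.846 to 12.3) against Control, and the chemokine receptor Cxcr4 had 51, 19 and 38, with 0.774 (0.495 to 1.20). Like Pax7, Chrdl2 and Calcr thus had their highest count in Dicer cKO, on few reads, whereas Cxcr4 had its highest in Control. The Control and ScxHt counts of Chrdl2 lie at or under the floor of 3 reads, so its ratios are not reliable. Genes under the minimum in the other lists are not described. Of the 12 genes with enough reads, the interval for Dicer cKO/Control lay above 1 for 4 and below 1 for 6.

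Of the myoblast fusion genes, 12 of 13 were found in the table and 10 had enough reads. For Dicer cKO/Control, Cav3, the caveolin of the muscle fibre membrane, was called higher at 2.02, and the co-receptors Cdon at 0.492 and Boc at 0.589 were called lower, with a median of -0.20 over the list. The same 3 were called in the same directions against ScxHt, at 2.40, 0.562 and 0.506, where 2 genes in all were called higher and 3 lower (median -0.13). None was called for ScxHt/Control (median -0.12).

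In the myostatin pathway, 15 of 17 genes had enough reads for Dicer cKO/Control and none was called higher and 1 lower, with a median of -0.16. Inhba, which encodes the activin A subunit and signals through the same receptors as myostatin, was the call at 0.561 and was also called against ScxHt at 0.572, with 0.998 for ScxHt/Control. The type I receptor Acvr1b, which stands in the same gene table of the study as Eya1, was the highest at 1.61. None of 14 genes was called for ScxHt/Control (median 0.03), and 1 was called higher and 1 lower of 15 for Dicer cKO/ScxHt (median -0.10). For Dicer cKO/Control the interval lay above 1 for 2 and below 1 for 7 of the 15 genes, whereas that of the ligand Mstn lay above 1.

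Of 15 neuromuscular synapse genes, 9 had enough reads, and none was called for Dicer cKO/Control (median -0.03), where Rapsn was the highest at 1.26 and Runx1, a factor raised in denervated fibres, the lowest at 0.602. For ScxHt/Control 1 was called lower (Rapsn, 0.583, median -0.22), and for Dicer cKO/ScxHt 2 of 8 were called higher (median 0.29).

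Genes of developing or stressed muscle fibres were mostly higher in Dicer cKO. Of 9 such genes, 8 had enough reads, and 5 were called higher and none lower for Dicer cKO/Control, with a median of 0.92. The embryonic myosin Myh3 had ratios of 1.84 for Dicer cKO/Control and 3.71 for Dicer cKO/ScxHt, the perinatal myosin Myh8 1.95 and 2.80, and the stretch-response gene Ankrd1 1.98 and 3.76, all called. Actc1, the cardiac actin of developing muscle, was the highest against Control at 5.49, but ScxHt was also high at 4.26. Nes was the lowest at 1.20. For ScxHt/Control 2 were called higher and 4 lower (median -0.63), and for Dicer cKO/ScxHt 5 higher and none lower (median 1.21). The summed level of the list was 462 RPM in Control, 381 in ScxHt and 892 in Dicer cKO. The mature muscle list had similar medians of 0.89 for Dicer cKO/Control and 1.23 for Dicer cKO/ScxHt, and -0.31 for ScxHt/Control. The part of muscle content in these values was not tested.

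The mature muscle list itself had 13 of 20 genes called higher and none lower in Dicer cKO against Control. In ScxHt against Control 3 were called higher and 8 lower, and in Dicer cKO against ScxHt 18 were called higher and none lower. Its ratios for Dicer cKO/Control went from 1.32 for Myh1 to 6.37 for Myh4, a fast myosin heavy chain that was also high in ScxHt at 4.70. The myogenic genes were thus read in libraries in which the fibre genes themselves differed, with summed levels of 65430, 37422 and 113632 RPM in Control, ScxHt and Dicer cKO.

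**Figure D4:**
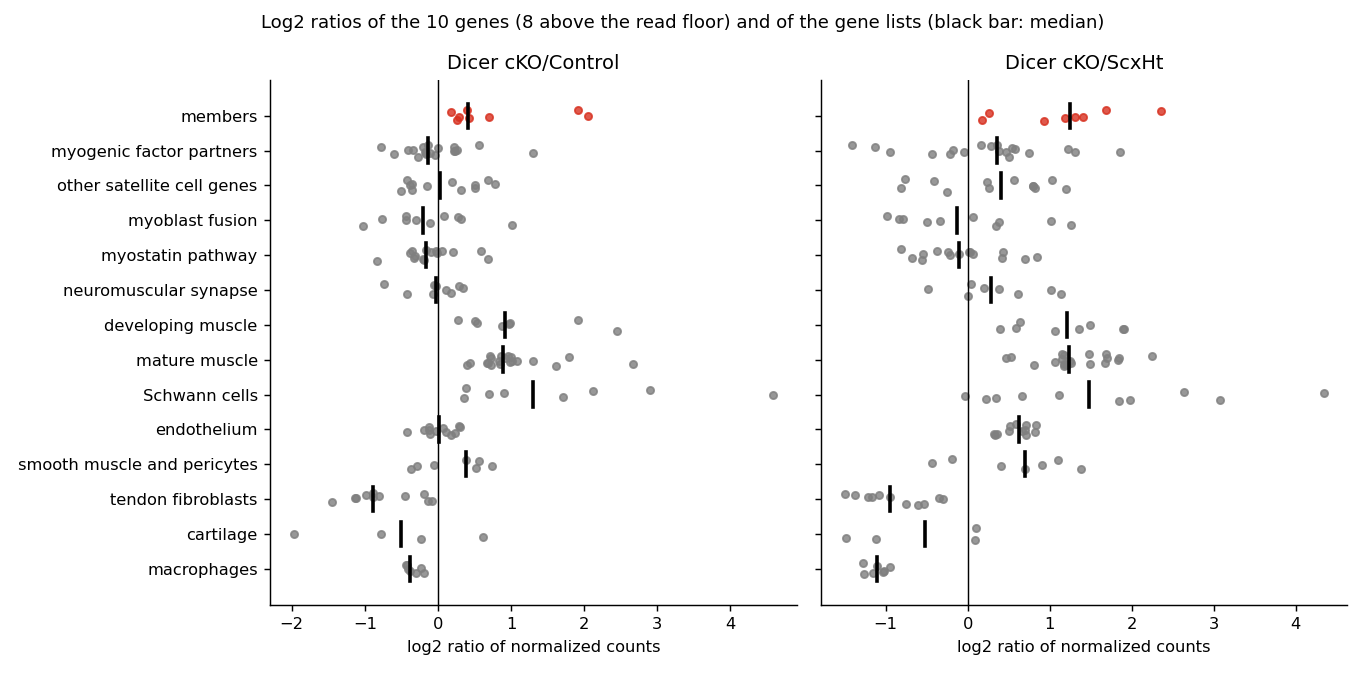
Log2 ratios of normalized counts for Dicer cKO/Control (left) and Dicer cKO/ScxHt (right); each point is a gene, red the 8 genes of the group with more than 3 reads in every library (labelled members) and grey the list genes with a baseMean above 50, and black bars are medians. The developing and mature muscle lists and the Schwann cell list have medians from 0.89 to 1.48, the satellite cell, fusion, myostatin and synapse lists from -0.20 to 0.41, and tendon fibroblasts -0.88 and -0.95.

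Markers of the other cell types moved between the same libraries. Schwann cell markers were called higher in 5 of 8 genes for Dicer cKO/Control (median 1.31, with L1cam the lowest at 1.28), and in 6 of 10 for Dicer cKO/ScxHt (median 1.48). Endothelial markers had medians of 0.02 and 0.62 in these comparisons, from 0.743 for Tie1 to 1.23 for Vwf against Control, with none called against Control and 2 of 12 called higher against ScxHt. Smooth muscle and pericyte markers had medians of 0.39 and 0.70, with Tagln called higher at 1.67 and 1.87 and Cspg4 the lowest at 0.778.

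Tendon fibroblast markers were called lower in 7 of 11 genes against Control and in 7 against ScxHt (medians -0.88 and -0.95), of which 5 were called in both (Scx, Fmod, Thbs4, Comp and Dcn), with Scx the lowest at 0.365 and Tnmd the highest at 0.948 against Control, and their summed level was 138224 RPM in Control, 123641 in ScxHt and 80182 in Dicer cKO. Cartilage markers, with 4 of 8 genes analysed, were called lower in 2 against both (medians -0.51 and -0.52, from 0.256 for Sox9 to 1.53 for Matn3 against Control), and summed to 418, 530 and 265. Macrophage markers were not called against Control (median -0.38, from 0.738 for Lyz2 to 0.877 for Adgre1) and called lower in all 7 against ScxHt (median -1.10), with summed levels of 229, 430 and 185. The 5 B cell markers summed to 1.0 to 1.46 RPM and none had enough reads.

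For ScxHt/Control the medians were -0.17 for Schwann cells, -0.54 for endothelium, -0.14 for smooth muscle and pericytes, 0.30 for tendon fibroblasts, 0.03 for cartilage and 0.78 for macrophages, of which 6 of 7 were called higher. The part of these cell types in the values of the 10 genes was not tested. Of the loci altered in these mice, Scx had 1055 reads in Control, 686 in ScxHt and 371 in Dicer cKO. Dicer1 had 1919, 2025 and 1621, a Dicer cKO/Control ratio of 0.877 (0.821 to 0.938), and its count covers the whole gene, so the floxed part cannot be told apart from the rest.

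The promoters of Myog and Mstn are shown because the myogenic factors and Mef2 proteins act on muscle promoters through E-boxes and A/T-rich MEF2 sites and because both genes are known targets of the myogenic factors. The windows hold the 250 bases before the RefSeq start (GRCm38.p6), with E-boxes (CANNTG) and MEF2-type letters (CTANNNNTA, either strand) in capitals. The spelling of the latter was chosen after the Myog window had been seen. The last bases of the Myog window, with the E-box CAGTTG, lie past the start of the gene in GENCODE.
Myog, chr1:134289754-134290003, plus strand: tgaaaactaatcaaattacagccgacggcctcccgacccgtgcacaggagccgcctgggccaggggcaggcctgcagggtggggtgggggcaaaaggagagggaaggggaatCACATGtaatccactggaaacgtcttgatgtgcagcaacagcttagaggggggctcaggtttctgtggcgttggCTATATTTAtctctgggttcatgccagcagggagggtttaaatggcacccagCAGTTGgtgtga
Mstn, chr1:53061390-53061639, plus strand: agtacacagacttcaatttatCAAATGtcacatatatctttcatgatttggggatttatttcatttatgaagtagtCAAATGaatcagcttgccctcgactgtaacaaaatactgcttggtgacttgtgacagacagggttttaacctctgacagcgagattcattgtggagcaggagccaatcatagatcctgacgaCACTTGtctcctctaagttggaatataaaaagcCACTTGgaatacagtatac
The Myog window held 2 E-boxes and 1 MEF2-type match, 64 bases before the RefSeq start, and the Mstn window 4 E-boxes and no MEF2-type match. Of 32851 windows of the same length, 66.2% held at least 1 E-box, 31.8% at least 2 and 19.0% the MEF2-type letters, so that these matches are common. Windows were found for 6 of the 10 genes, and that of Myf5 held no E-box and 2 overlapping MEF2-type matches. The narrower E-box spelling CAGCTG was in none of the windows of these 6 genes, Myog and Mstn included. It was in 13.0% of the 32851 windows. The spelling CACCTG, searched on either strand, was also in none of the windows of these 6 genes, and in 17.2% of the 32851.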

How the data were processed

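RNA-seq and small RNA-seq of Achilles tendon RNA had 1 library per genotype, 6 in all. According to the methods and labels, RNA was extracted with ISOGEN and a Direct-zol kit, and the authors trimmed adaptors, aligned reads with Tophat and bowtie2 to GRCm38 and counted them per gene by HTSeq. The read counts were deposited without normalization, and the deposited RPKM values are the authors' scaling of those counts by feature length and library total. Versions, annotation release and strand setting are not given in the sources used here.

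Of the 54189 lines, 463 repeated an earlier line and were dropped, and for names still on several lines the line with most counts was used. The counts were divided by DESeq2 1.42.0 size factors of the libraries compared (R 4.3.3). Ratios and intervals used Python 3.11.15 (scipy 1.17.1, pandas 2.3.3 and numpy 2.4.6), and plots matplotlib 3.10.9. Called genes had a baseMean above 50 (15 in small RNA-seq) and a ratio above 1.67 or below 0.60, and 3 reads were the floor. The statistic was tested on simulated counts. RPKM served to order genes within a library. Other scalings (edgeR 4.0.16 TMM, total counts, all 3 libraries, total counts without features above 1%), minimum baseMean, thresholds, a pseudocount of 1 and summed lines were tried as alternatives.

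Named were the 10 genes, Dicer1, Scx, Mir206, the genes with the highest and lowest Dicer cKO/Control ratio of each list, genes of the pathway lists called in the same direction against Control and ScxHt, and the 2 list genes nearest to each gene by both log2 ratios. Outside this rule, Des and the genes of the other satellite cell list under the minimum baseMean are also named. Of the mature muscle list, only the extremes are named, and the values of 1 gene that the rule covers are not reported here. The 10 genes and all lists were chosen with earlier results of these data known. Gene positions and 3′ UTRs were taken from GENCODE vM21, promoters and the miRNA from RefSeq GRCm38.p6.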

Additional observations from a re-analysis of the deposited data

How the results depend on the processing

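No paired analysis was possible because each genotype had 1 library, and for the same reason no library could be left out. The limits below come from depth, since 5 of the 10 genes had a baseMean of 50 or less in every comparison, and from the unknown spread between mice. No result reversed under any alternative. The number of the 10 genes called higher for Dicer cKO/Control, 0 as reported, was 1 with total counts (Mstn), 2 with a minimum baseMean of 10 (Myod1 and Pax7) and 3 with none (also Myf5). For ScxHt/Control the 2 called lower became 1 with a minimum of 200 (Myf6), 1 with ratios of 2 and 0.5 (Cdh15) and 0 when the whole interval had to pass. For Dicer cKO/ScxHt the 3 called higher became 6 with a minimum of 10 (also Myod1, Myog and Pax7) and 7 with none (also Myf5). The median of the mature muscle genes with total counts moved to 0.95 between Dicer cKO and Control, and to -0.21 between ScxHt and Control. These changes follow from the number of genes that pass each minimum or threshold, or from the scaling itself. Smaller shifts were a Dicer cKO/ScxHt count of 2 with ratios of 2 and 0.5 (without Mef2c) and of 2 with a minimum of 200 (without Cdh15), and a ScxHt/Control count of 3 with a minimum of 10 or none (also Myog). No other alternative changed which of the 10 genes were called, and no median changed sign. Scalings of Mir206 were chosen after its values were seen.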
